A study of Mus musculus with 6 samples.

Results

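In mouse embryonic fibroblasts given vehicle, 1292 of the 6444 peaks of labelled DNA ends (20.05%) had their summit inside a protein-coding gene and more than 1 kb from both ends of every coding gene. The peaks were chosen by position alone, from the summit given in the deposited list and the RefSeq gene table of GRCm38.p6, the assembly also called mm10. The remaining peaks were 3682 within 1 kb of a coding gene end, 964 outside coding genes, and 506 in 1 dense region of chromosome 15 that was left out of the gene-body peaks. No measured strength of a peak entered the choice, so fold, width and coverage below were not set by it, while distances under 1 kb were.

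BrITL permeabilises cells, adds a biotinylated chain terminator to open DNA ends, and sequences the DNA that streptavidin beads retain, which places reads at and around broken DNA. The cells were passage-immortalised fibroblasts of the genotype ATR+/- that expressed Bcl-xL, an inhibitor of apoptosis, and both conditions shared this background. Treated cells had 18 h of 0.2 µM aphidicolin, which blocks replicative DNA polymerases, together with 1 µM ATR-45, which blocks the kinase ATR, and vehicle cells had DMSO for 18 h. A condition comprised 2 pull-downs and 1 input, and the peak names state that these were pooled, so every value below is 1 per peak, with no replicate error and no test of the conditions. No RNA was measured, so the fibroblast identity could not be set against marker genes.

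Inside genes, transcription can begin again at alternative promoters, which give shorter messages and often sit in CpG islands, stretches where the CG dinucleotide has kept its frequency and the DNA is mostly unmethylated. Gene bodies also hold enhancers, and genes of non-coding RNA. Open DNA ends are known at active promoters and enhancers, where topoisomerases cut and reseal strands, while very long genes are the classical places where slowed replication breaks chromosomes.

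Start sites were listed for the chromosomes of 1258 gene-body peaks, and 399 of these peaks (31.7%, 95% Clopper-Pearson interval 29.2% to 34.4%) had their summit within 1 kb of a listed RefSeq transcription start that itself lay inside a gene. Such windows made up 0.685% of the coding gene body. The density of gene-body peaks was 60.9 per Mb within 1 kb of an internal start and 0.904 per Mb elsewhere in the body. All 399 peaks had an internal start of their own host gene within that distance.

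Windows from RefSeq GRCm38.p6 are shown for the internal starts under the strongest peaks, since their base composition is the feature described next. Each window runs over 300 bases, from 250 before the start to 50 from the start onward, 5′ to 3′ on the strand of the gene, with every CpG dinucleotide in capitals. The first 3 are the highest by fold among peaks up to 5 kb from a coding gene end, and the next 3 are the highest beyond 5 kb, in each case with the summit within 250 bp of the start. Brd2, a bromodomain reader of acetylated histones, has its window at chr17:34121698-34121997 on the minus strand, with 14 CpG. Nadk, the cytosolic NAD kinase, has its window at chr4:155563565-155563864 on the plus strand, with 24 CpG. Garnl3 has its window at chr2:33130570-33130869 on the minus strand, also with 24 CpG. Mllt10, which encodes a cofactor of the histone methyltransferase Dot1l, has its window at chr2:18064335-18064634 on the plus strand, with 43 CpG. Fancc, a subunit of the Fanconi anaemia core complex of crosslink repair, has its window at chr13:63431696-63431995 on the minus strand, with 23 CpG. Por, the reductase that passes electrons to cytochrome P450 enzymes, has its window at chr5:135688895-135689194 on the plus strand, with 27 CpG. Hdac7, a histone deacetylase, was added as the first host by fold, beyond 5 kb, that also lists an internal start with no peak within 1 kb: the window with a peak lies at chr15:97831718-97832017 on the minus strand and holds 35 CpG, and the window without one lies at chr15:97814814-97815113 on the same strand and holds 5 CpG.
Brd2: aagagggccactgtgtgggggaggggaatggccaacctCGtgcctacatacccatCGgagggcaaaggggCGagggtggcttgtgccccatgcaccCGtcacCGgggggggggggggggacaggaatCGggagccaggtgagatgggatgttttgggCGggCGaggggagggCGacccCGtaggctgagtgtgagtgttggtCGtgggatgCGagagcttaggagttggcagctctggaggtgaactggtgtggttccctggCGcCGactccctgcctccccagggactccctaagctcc
Nadk: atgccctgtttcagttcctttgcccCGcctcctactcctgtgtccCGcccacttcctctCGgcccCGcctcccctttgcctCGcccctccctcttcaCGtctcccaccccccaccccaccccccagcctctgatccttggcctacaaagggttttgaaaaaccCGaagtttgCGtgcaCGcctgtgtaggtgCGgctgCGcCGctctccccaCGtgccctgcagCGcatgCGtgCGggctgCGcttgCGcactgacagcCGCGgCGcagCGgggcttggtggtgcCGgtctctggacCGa
Garnl3: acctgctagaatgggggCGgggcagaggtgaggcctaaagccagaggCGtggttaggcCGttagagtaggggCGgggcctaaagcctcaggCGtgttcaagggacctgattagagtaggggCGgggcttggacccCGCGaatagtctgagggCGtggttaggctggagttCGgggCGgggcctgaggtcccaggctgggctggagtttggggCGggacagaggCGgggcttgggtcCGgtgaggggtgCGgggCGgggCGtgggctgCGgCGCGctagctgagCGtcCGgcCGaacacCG
Mllt10: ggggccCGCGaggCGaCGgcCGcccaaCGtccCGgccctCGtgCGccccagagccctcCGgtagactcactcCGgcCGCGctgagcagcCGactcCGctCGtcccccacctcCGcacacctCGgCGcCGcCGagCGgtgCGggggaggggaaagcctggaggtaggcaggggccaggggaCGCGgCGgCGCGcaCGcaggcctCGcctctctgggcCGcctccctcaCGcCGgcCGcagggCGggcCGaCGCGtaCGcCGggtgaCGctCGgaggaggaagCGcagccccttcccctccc
Fancc: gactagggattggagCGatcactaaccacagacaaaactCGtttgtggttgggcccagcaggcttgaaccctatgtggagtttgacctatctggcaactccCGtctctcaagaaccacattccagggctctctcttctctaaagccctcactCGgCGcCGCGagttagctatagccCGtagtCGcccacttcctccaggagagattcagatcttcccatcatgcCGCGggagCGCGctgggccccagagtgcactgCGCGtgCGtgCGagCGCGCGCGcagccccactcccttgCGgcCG
Por: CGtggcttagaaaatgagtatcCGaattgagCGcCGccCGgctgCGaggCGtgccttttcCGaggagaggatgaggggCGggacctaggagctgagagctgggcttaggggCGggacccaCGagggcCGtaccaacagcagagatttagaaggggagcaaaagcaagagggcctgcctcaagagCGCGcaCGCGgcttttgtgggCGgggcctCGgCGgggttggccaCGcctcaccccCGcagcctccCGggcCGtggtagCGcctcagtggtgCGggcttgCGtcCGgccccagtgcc
Hdac7: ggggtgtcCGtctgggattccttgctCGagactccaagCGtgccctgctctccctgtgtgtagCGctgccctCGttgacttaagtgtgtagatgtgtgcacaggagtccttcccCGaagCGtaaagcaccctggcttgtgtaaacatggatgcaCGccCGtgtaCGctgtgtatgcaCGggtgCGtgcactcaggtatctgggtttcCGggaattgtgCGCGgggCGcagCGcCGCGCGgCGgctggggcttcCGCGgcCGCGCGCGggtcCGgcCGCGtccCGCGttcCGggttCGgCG
Hdac7, start without a peak: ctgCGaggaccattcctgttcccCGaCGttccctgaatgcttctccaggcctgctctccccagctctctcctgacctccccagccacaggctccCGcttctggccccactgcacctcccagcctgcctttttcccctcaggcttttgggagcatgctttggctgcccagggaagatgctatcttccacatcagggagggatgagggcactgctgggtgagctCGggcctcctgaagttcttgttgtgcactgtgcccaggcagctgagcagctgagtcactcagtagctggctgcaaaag

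For the Brd2, Nadk, Garnl3, Mllt10, Fancc and Por windows, a summit within 250 bp of the start was a condition of the choice. The Brd2 summit was 85 bp downstream of its internal start, and the authors' fold enrichment there was 27.5. The Nadk summit lay 34 bp upstream of its start at a fold of 23.6, and the Garnl3 summit 147 bp upstream at a fold of 22.2. Deeper in their genes, the Mllt10 summit lay 131 bp downstream of its start, the Por summit 64 bp downstream and the Fancc summit 242 bp downstream. These 3 had folds of 19.98, 18.5 and 18.8, and lay 9.56, 19.2 and 65.8 kb from the nearest coding gene end. The Hdac7 summit had a fold of 17.8. Over all 399 peaks at internal starts, the summit was a median of 104 bp upstream of the start, with quartiles at -321 and 193 bp, and 40.9% were downstream. The 1833 gene-end peaks within 1 kb of an outermost start, one that lies exactly at a gene end, had a median of 100 bp upstream and 39.2% downstream. Within 500 bp of the start lay 82.7% of the gene-body summits and 79.2% of the gene-end summits. The difference between these distributions was not tested.

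**Figure D1:**
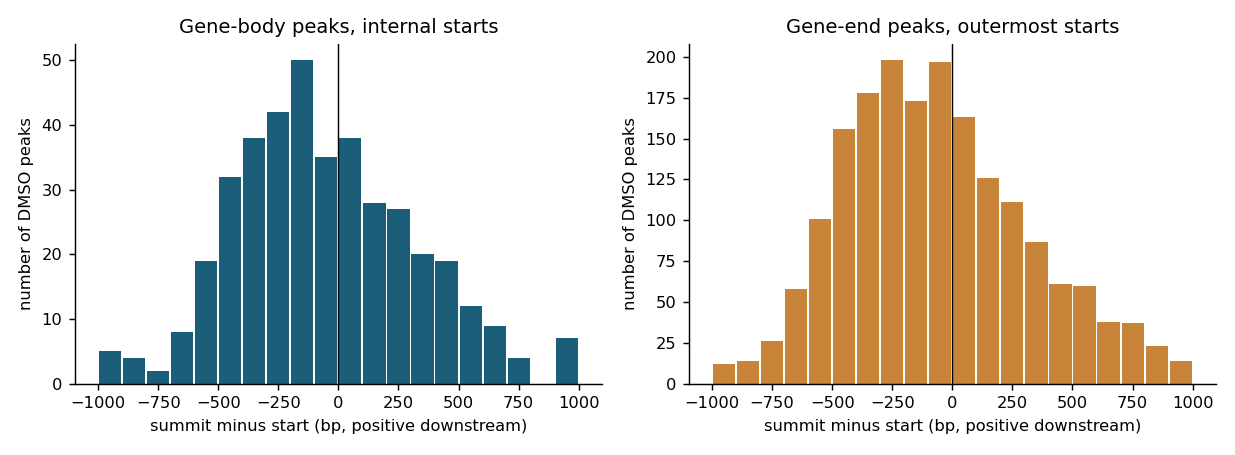
Number of DMSO peaks (y axis) by the signed distance from the start to the summit in bp (x axis, positive downstream), in bins of 100 bp, for gene-body peaks at internal starts (left) and gene-end peaks at outermost starts (right). Both histograms are highest just upstream of the start, with medians of 104 bp and 100 bp upstream.

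Seen from the starts, 490 of 3881 internal starts had a gene-body peak within 1 kb (12.6%), and 1936 of 10585 outermost starts had a summit of any DMSO peak within 1 kb (18.3%). These shares rest on unlike sets of peaks. An internal start with only a gene-end summit within 1 kb was counted as a start without a peak. The internal starts with a peak were rich in CpG: their windows held a median of 25 CpG and 65.2% G and C, against 7 CpG and 53.3% in the 3391 internal starts without one. The outermost starts showed the same direction, with a median of 24 CpG with a peak and 6 without. Split by CpG count, the share of internal starts with a peak was 1.40% of the 1211 with 0 to 4 CpG and 3.95% of the 810 with 5 to 8 CpG. It was 13.7% of the 906 with 9 to 20 CpG and 33.2% of the 954 with 21 to 67 CpG. The last group of starts accounted for 317 of the 490. The G and C content differed along with the CpG count, and its part in this order was not tested.

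**Figure D2:**
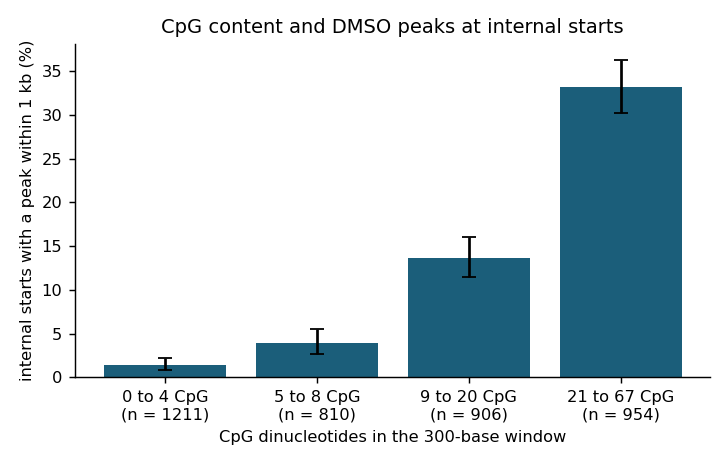
Share of internal starts with a DMSO gene-body peak within 1 kb, in percent (y axis), by the number of CpG dinucleotides in the 300-base window (x axis); bars are shares and error bars are 95% Clopper-Pearson intervals over starts. The share is 1.40% in the CpG-poorest starts and 33.2% in the CpG-richest.

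Short motifs were counted on both strands of the windows. The GC box GGGCGG, the letters read by Sp1 and its relatives, was in 73.1% of windows of internal starts with a gene-body peak and in 33.5% of those without one, and 35.7% of all 32850 windows of the table held it. The ETS motif CCGGAAG was in 14.5% and 5.81% of the same windows, with 8.86% over all windows. The E-box CACGTG was in 10.2% and 5.72%, with 7.15% over all windows. The TATA box TATAAA ran the other way, with 4.08% of windows with a peak, 11.9% of windows without one and 13.6% of all windows. CCAAT was in 36.1% and 34.5%, with 37.4% over all windows. The AP-1 motif TGAGTCA was in 6.94% and 5.07%, with 5.20% over all windows, and the cAMP response element TGACGTCA was in 1.22% and 1.504%, with 1.79% over all windows. No motif of these contains another. The GC box, the ETS motif, the E-box and the cAMP response element hold CpG in their own letters. A match is a description of the letters in the window and not of a bound factor.

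The label of the peaks as lying deep in genes held for most of them and not for all. The median distance from the summit to the nearest coding gene end was 8.72 kb, and the largest was 618 kb. Beyond 5 kb lay 802 peaks (62.1%), while 249 (19.3%) lay between 1 and 2 kb and 241 between 2 and 5 kb. Further in, 200 lay at 5 to 10 kb, 179 at 10 to 20 kb, 228 at 20 to 50 kb and 195 beyond 50 kb. The peak interval itself, with a median width of 2956 bp, reached a coding gene end in 205 cases (15.9%), among them 63.9% of the peaks in the band of 1 to 2 kb. Per Mb of gene body in each band, the density was 6.53 peaks at 1 to 2 kb, 2.52 at 2 to 5 kb, 1.69 at 5 to 10 kb, 1.17 at 10 to 20 kb, 1.02 at 20 to 50 kb and 0.541 beyond 50 kb. Just inside the margin were peaks of Hspb8, a small heat-shock protein, and of the taurine transporter Slc6a6, each 1006 bp from a gene end, then of Emp3 at 1008 bp and of the predicted gene Gm52799 at 1012 bp. Their folds were 10.5, 10.75, 9.53 and 12.45. Just outside it, in peaks that count as gene-end peaks, were Sh2b3 and Stk10 at 997 bp, 4933440N22Rik at 996 bp and Cnot6 at 990 bp, with folds of 15.4, 10.0, 22.2 and 10.5.

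The gene-body peaks leaned towards the start of the gene. Of the 1040 whose host had a known strand, 714 lay nearer the start (68.7%, interval 65.7% to 71.5%). In the band of 1 to 2 kb the share was 91.6%, and in the bands of 10 to 20 kb, 20 to 50 kb and beyond 50 kb it was 56.2%, 51.9% and 58.1%. Measured from the gene start, there were 11.4 peaks per Mb at 1 to 2 kb and 4.002 at 2 to 5 kb. Measured from the other end of the gene, there were 1.33 per Mb at 1 to 2 kb and 1.48 at 2 to 5 kb. Beyond 10 kb these densities were in the reverse order. From the start there were 1.36, 1.08 and 1.07 per Mb at 10 to 20, 20 to 50 and 50 to 100 kb. From the other end there were 2.05, 1.71 and 1.30. Each density pools long and short genes, so stretches far from the other end include stretches near the start of short genes. By distance to the nearest coding gene end, the shares given above for peaks beyond 10 kb showed no such reversal. The peaks at internal starts made up part of the difference at 1 to 2 kb. Without them, 78 of the 171 peaks at that distance from the gene start were left, against 18 of the 20 from the other end. With the gene length cut into 10 equal stretches, the first held 212 of the 1040 peaks and the last held 45.

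**Figure D3:**
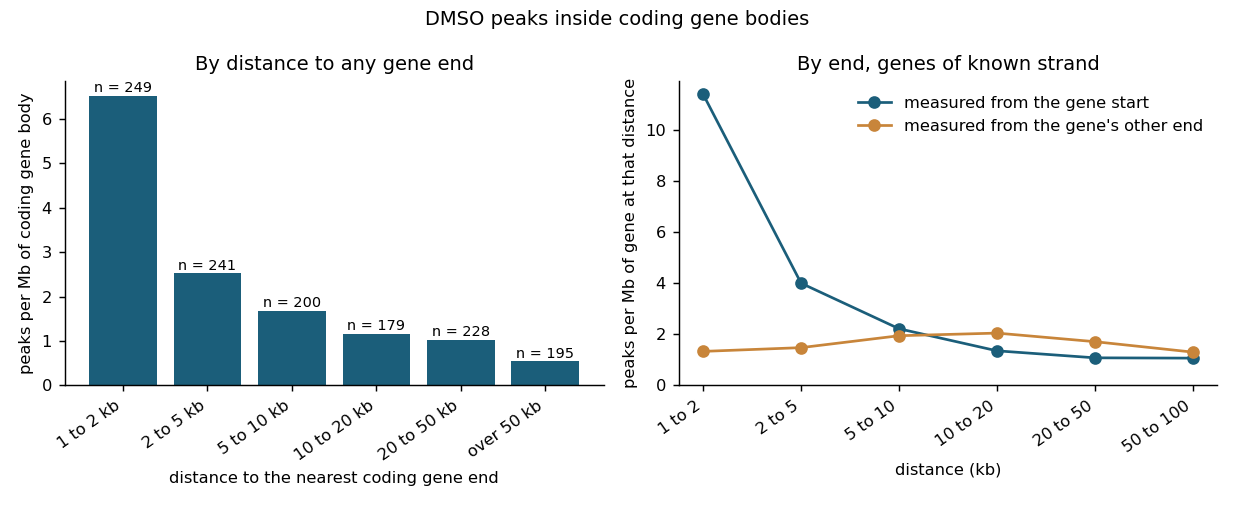
Left, DMSO gene-body peaks per Mb of coding gene body (y axis) by distance to the nearest coding gene end (x axis), with the number of peaks above each bar. Right, peaks per Mb of gene (y axis) by distance in kb (x axis), measured from the gene start and from the other end, for hosts of known strand; the values are 11.4 and 1.33 per Mb at 1 to 2 kb.

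Gene-body peaks were close in strength to the other peaks outside the dense region of chromosome 15, which is left out of the next comparisons. Their median fold was 11.1 (95% order-statistic interval 10.99 to 11.23), against 11.7 in gene-end peaks (11.5 to 11.7) and 10.5 in peaks outside genes (10.26 to 10.75). The median −log10 q was 28.5, against 29.5 and 26.3, and the median width was 2956 bp, against 2898 and 2660 bp. At the summit, the coverage recovered from the deposited values was a median of 47 pull-down fragments, against 49 and 47. The background term, called input below, was at the floor of the whole list, 2.32 fragments, in 71.0% of gene-body peaks, 81.6% of gene-end peaks and 57.8% of peaks outside genes. It was at least 2 times that floor in 28 gene-body peaks (2.17%), 34 gene-end peaks (0.923%) and 69 peaks outside genes (7.16%). Peaks at internal starts had a median fold of 11.7, and the 780 gene-body peaks near neither an internal start nor a non-coding gene end had 10.9.

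Peaks with intervals under 500 bp numbered 27 (2.09%), with a median fold of 8.705 and a median of 65 pull-down fragments, and in 14 the input was at least 2 times the floor. In the 819 peaks of 2 to 4 kb, this held for 6. Only 2 of the narrow peaks (7.69% of those outside chromosome 18) lay at an internal start, against 34.5% of the peaks of 2 to 4 kb. The strongest by −log10 q of the whole DMSO list was one of them. It covered 312 bp of Zc3h7a, which encodes a zinc finger protein, at chr16:11144006-11144317, 7.52 kb from the nearest coding gene end. Its −log10 q was 160.5, its summit held 204 pull-down fragments over an input of 6, and its fold was 23.6. What the DNA there holds was not examined, since no genome sequence was used here.

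By fold, the strongest gene-body peaks lay within 5 kb of a gene end. In Tnrc18, which encodes a large reader of histone methylation, a peak of 12960 bp at chr5:142812621-142825580 had a fold of 29.99 with its summit 1.37 kb from the gene end. Nfib, a nuclear factor I transcription factor, had a fold of 27.75 with its summit 1.03 kb from the gene end, and Brd2 the 27.5 given above. Ssc4d followed with 25.6, the homeobox gene Meis2 with 25.1, beta-actin (Actb) with 24.9, Nadk with 23.6, Zbtb7a with 23.4, the acetyltransferase gene Kat6b with 22.9 and Mllt10 with 22.4 in its second peak, which was 2.21 kb from the gene end. Of these 10 intervals, all but that of Ssc4d reached a coding gene end. Beyond 5 kb the strongest was in Bahcc1, with a fold of 23.9 and a summit 23.8 kb from the nearest end, then Zc3h7a as above. Niban2 had 23.4, and its summit was 460 bp from a non-coding gene end. The heparan sulfate proteoglycan gene Sdc4 had 22.4 at 8.52 kb from the nearest end. The retinoic acid receptor gene Rarg had 21.4, the lamin A gene Lmna 21.2 and the Notch effector gene Rbpj 20.95, all with an internal start within 1 kb. Ywhaz and Creb3l1 each had 20.7, Mllt10 19.98, the metalloproteinase inhibitor gene Timp2 and the plectin gene Plec 19.5 each, Iqschfp 19.25 and Tex14 19.0. The widest intervals were those of the angiomotin-like gene Amotl2, with 21606 bp, Tnrc18, with 12960 bp, the small GTPase gene Rhof, with 11201 bp, and the Notch glycosyltransferase gene Lfng, with 10091 bp. All 4 of these summits were within 5 kb of a coding gene end, and all 4 intervals reached one.

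At the other extreme, the summit farthest from any gene end was in Tenm3, a teneurin adhesion gene of 1297 kb, 618 kb inside, with a fold of 10.99. It was 233 bp from the end of a non-coding gene. A peak in the synaptic adhesion gene Il1rapl1 lay 497 kb inside with a fold of 10.5 and an interval of 177 bp. The latrophilin gene Adgrl3 held 2 peaks, 346 and 345 kb inside, with folds of 10.3 and 8.10. The ion channel gene Trpm3 had 11.8 at 344 kb inside in an interval of 163 bp, and the splicing regulator gene Celf2 8.705 at 307 kb inside. These folds lie near or below the median of all gene-body peaks, and 3 of the 6 intervals were under 1 kb.

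The 1292 peaks fell in 1079 genes, 5.59% of the 19301 coding genes over 2 kb long. The hosts were long, with a median of 52.3 kb, against 21.3 kb for all those genes. By length, the share of genes with a peak was 1.52% at 2 to 10 kb, 4.38% at 10 to 20 kb and 5.34% at 20 to 50 kb. It was 8.62% at 50 to 100 kb, 12.9% at 100 to 200 kb and 15.4% beyond 200 kb. A single peak was found in 912 hosts, 2 in 129, 3 in 26 and 4 or more in 12, and 395 peaks shared their host with another. Peaks in 1 gene are not independent sites, and 154 of the 1292 (11.9%) had another within 10 kb.

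Tex14, a gene required for the intercellular bridges of germ cells, held the most, with 10 peaks whose summits spanned 45.5 kb of its 150.8 kb. All 10 lay within 1 kb of a gene that the table types as snRNA, and 9 of them lay within 1 kb of Rnu3b1, Rnu3b2, Rnu3b3 or Rnu3b4, copies of the gene of U3, the RNA that guides early cuts of the ribosomal RNA precursor. The summit nearest to a copy was 25 bp from Rnu3b2, in an interval of 279 bp with a fold of 13.4, the strongest was 638 bp from the same copy with a fold of 19.0, and another was 531 bp from it with a fold of 10.02. Around Rnu3b4 the 2 summits were 32 and 657 bp away, with folds of 13.7 and 11.7. Around Rnu3b3 they were 174 and 612 bp away, with folds of 17.3 and 12.9, and around Rnu3b1 311 and 144 bp away, with folds of 13.9 and 9.16. The remaining summit lay 27 bp from the predicted gene Gm22068, with a fold of 10.99. The 4 copies are members of 1 gene family, and how the aligner placed reads that fit several copies was not stated, so the values at each copy are uncertain. Tex14 thus accounted for 10 of the 13 gene-body peaks near any snRNA gene.

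Gse1, a gene of a chromatin corepressor protein, came next with 8 peaks spread over 298.5 kb, with folds of 10.0 to 17.8, of which 1 was at an internal start. Pakap held 5, with folds of 7.78 to 16.1. The signalling gene Smad3, the transcription factor genes Nfic and Runx2, 2900026A02Rik, the Hippo cofactor gene Vgll4, the TGF-beta coreceptor gene Tgfbr3, Ahdc1 and the focal adhesion gene Pxn held 4 each. Their spacing differed: the median gap between neighbouring summits was 1.00 kb in Tex14, 34.8 kb in Gse1, 12.7 kb in Smad3 and 33.0 kb in Runx2.

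**Figure D4:**
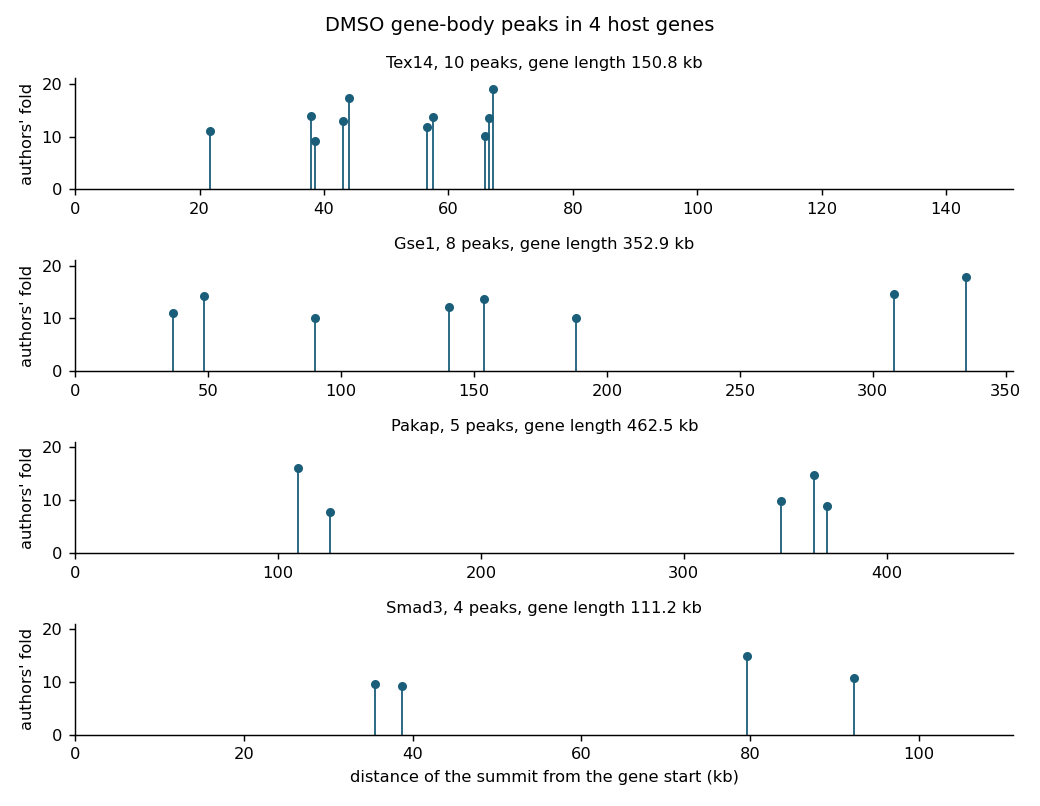
DMSO gene-body peaks in 4 host genes of known strand: distance of each summit from the gene start in kb (x axis, over the whole gene) and the authors' fold (y axis). Tex14 has 10 summits within 45.5 kb, and the 8 of Gse1 are spread over 298.5 kb.

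Gene lists that fit fibroblasts were described by how many of their genes over 2 kb long held a gene-body peak, beside the share among all coding genes in the same length ranges. Of 58 transcription factors of mesenchymal cells, 22 held one (37.9%, interval 25.5% to 51.6%), against 9.87% in all coding genes of those lengths. They were led by Nfib, Meis2 and Rbpj, followed by Tcf7l1 with a highest fold of 15.2 and Nfia with 14.6. Of 61 chromatin regulators, 21 held one (34.4%, 22.7% to 47.7%), against 9.48%. Behind Tnrc18, Brd2 and Kat6b came the corepressor scaffold gene Sin3a with 20.7 and the histone demethylase gene Kdm6a with 18.0. Of 50 genes of the actin cytoskeleton and focal adhesions, 15 held one (30%, 17.9% to 44.6%), against 7.93%. After Actb came Tagln2 with 19.5, Pdlim7 with 18.3, the caldesmon gene Cald1 with 17.5 and Lima1 with 15.2. These 3 lists had shares over 3 times those of genes of their lengths; the lists were chosen with earlier results of these data known, and no test was made.

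The signalling and matrix lists had lower shares than the lists above. The intervals of TGF-beta and BMP signalling and of the extracellular matrix lay above their backgrounds. Those of the other signalling lists contained theirs, and no test was made. Genes of TGF-beta and BMP signalling held a peak in 7 of 36 cases (19.4%, 8.19% to 36.0%), against 6.95%. They were Smurf1 with a highest fold of 17.5, Tgif1 with 15.85, Smad3 with 14.9, the ligand gene Bmp4 with 13.9, Tgfbr3 with 12.7, Ltbp3 with 10.75 and Ski with 7.15. Genes of the extracellular matrix and its receptors held one in 10 of 53 cases (18.9%, 9.44% to 32.0%), against 7.92%, led by Sdc4 and Timp2, then the lysyl oxidase gene Loxl1 with 15.1, the latent TGF-beta binding gene Ltbp1 with 14.15 and the gelatinase gene Mmp2 with 13.4. Growth factor receptors and RAS-MAPK genes held one in 7 of 50 cases (14.0%, 5.82% to 26.7%), against 7.95%. They included the kinase genes Src with 19.0, Epha2 with 17.1, Map3k1 with 13.7, and Pdgfra and Axl with 10.99 each. In the Wnt and Hippo pathways it was 3 of 42 (7.14%, 1.498% to 19.5%), against 7.84%: Amotl2 with 15.6, Vgll4 with 12.7 and Axin1 with 10.8.

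The very long genes did not exceed the background of their length ranges. The longest range took in all 990 coding genes over 200 kb, and no background restricted to still longer genes was computed. Genes of common fragile sites, where chromosomes break when replication is slowed, have a median length of 1125 kb. Of these genes, 3 of 31 held a gene-body peak (9.68%, 2.04% to 25.8%), against 15.3% of coding genes in the same length ranges. They were Foxp1 with 11.2, Tenm3 with 10.99 and Ccser1 with 10.0. Synaptic and neuronal adhesion genes, with a median length of 943.7 kb, held one in 3 of 40 cases (7.50%, 1.57% to 20.4%), against 14.9%. They were the calcium channel gene Cacna1a with 10.0 and Lrrc4c and the gephyrin gene Gphn with 9.775 each. These intervals contain the background shares, so a deficit was not detectable with lists of this size. Foxp1 was counted in both the fragile-site and the transcription factor lists.

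**Figure D5:**
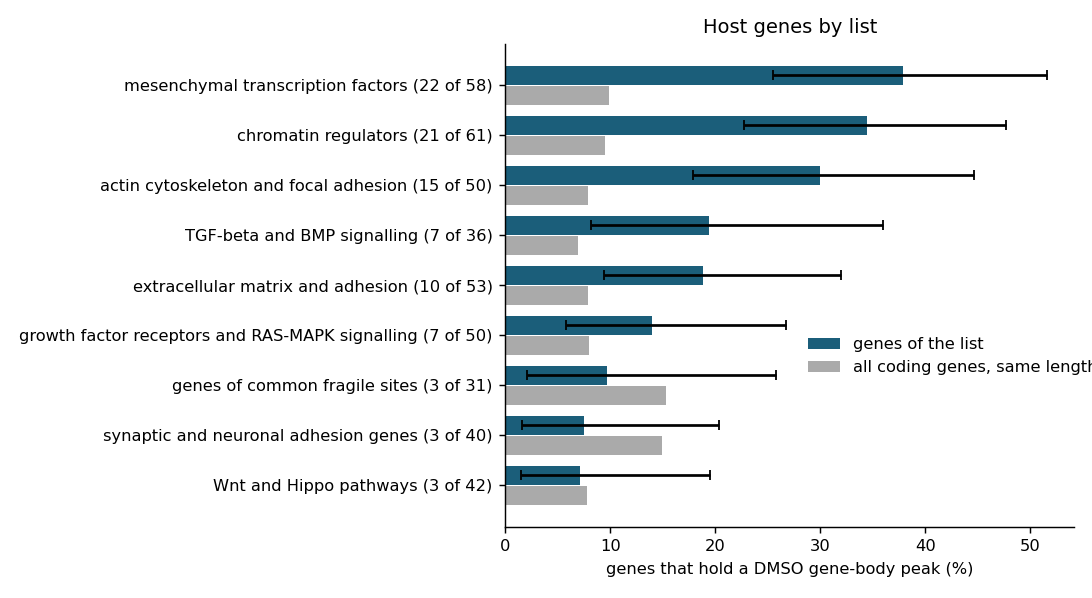
Share of the genes of each list that hold at least 1 DMSO gene-body peak, in percent (dark bars, with 95% Clopper-Pearson intervals over genes), and the share among all coding genes in the same length ranges (grey bars). The counts stand beside the list names; 37.9% of mesenchymal transcription factors and 34.4% of chromatin regulators held a peak.

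Non-coding genes were the other annotated feature near the summits. Within 1 kb of a non-coding gene end lay 147 gene-body peaks (11.4%, 9.70% to 13.2%), where 2.18% of the coding gene body lies. Many of these also lay at an internal start. Of the 1258 peaks with listed starts, 79 (6.28%) lay near a non-coding gene end and not at an internal start. The counts and densities that follow include peaks at internal starts. Long non-coding RNA genes, whose ends hold 1.27% of the body within 1 kb, made up most of the 147, with 118 peaks, against 13 for snRNA, 11 for miRNA, 5 for pseudogenes, 2 for tRNA and 1 for snoRNA genes. The density was 9.40 peaks per Mb near ends of long non-coding RNA genes and 1.20 per Mb elsewhere in the body, and near pseudogene ends it was 0.816 per Mb, against 1.31 elsewhere. Near snRNA gene ends, which are 0.0732% of the body, it was 18.0 per Mb, against 1.295 elsewhere, and near tRNA gene ends, which are 0.00515% of the body, the 2 peaks came to 39.3 per Mb, against 1.305 elsewhere. The snRNA type, under which the U3 copies fall, is that of the gene table. Of the 13 snRNA peaks, 10 were those in Tex14, where the values at each U3 copy are uncertain. Near neither a listed internal start nor a non-coding gene end lay 780 of the 1258 peaks with listed starts (62.0%).

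Among peaks near miRNA, snoRNA and tRNA genes, with snRNA genes described above left aside, those of highest fold were at Mir7655 in Mllt10 with 22.4, Mir7653 in Tlcd1 with 20.2, Mir3109 in the annexin gene Anxa2 with 15.85 and the H/ACA snoRNA genes Snora64 and Snora78 in the ribosomal protein gene Rps2 with 15.85. Lower folds were seen at Mir1191b in Nfic with 12.9, Mir3092 in Fndc3b with 11.2, a tRNA gene in the mitochondrial polymerase gene Polg with 10.75, Mir1893 in Epc1 with 10.2, Mir5620 in Clcn4 with 9.775 and Mir7028 in Tchp with 9.29. The summit was 20 bp from the tRNA gene and 37 bp from an end of Mir3092, and 344 bp or more from each of the others. The mature miRNAs are shown for the 3 miRNA genes with a summit within 50 bp, chosen after the values were seen, with the seed at bases 2 to 8 in capitals, from RefSeq. The summit lay inside Mir199a-2, 44 bp from its end. This gene is in Dnm3, 235 kb from the gene's nearest end, at chr1:162217814-162217923, and the fold was 7.29. The Fndc3b summit lay inside Mir3092 and 126 kb from the nearest coding gene end. In Fcgr3 the summit was 4 bp outside Mir6546, in an interval of 200 bp with a fold of 7.55. The Fcgr3 summit also lay within 1 kb of 3 tRNA genes. The 6 seeds differ from each other.
mmu-miR-199a-5p: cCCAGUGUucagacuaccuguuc
mmu-miR-199a-3p: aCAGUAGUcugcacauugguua
mmu-miR-3092-5p: aGGGGAAAaugccuuucuccca
mmu-miR-3092-3p: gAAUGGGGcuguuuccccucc
mmu-miR-6546-5p: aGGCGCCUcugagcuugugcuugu
mmu-miR-6546-3p: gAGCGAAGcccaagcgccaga

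Few gene-body peaks met a treated peak. Treated peaks overlapped 27 of the 1292 by at least 1 bp (2.09%, 1.38% to 3.03%), and the 28 treated peaks involved are 5.70% of the 491 in the treated list. The share was 0.619% with only treated peaks of −log10 q of at least 5, and 1.12% for gene-body peaks more than 5 kb from a coding gene end. For gene-end peaks it was 3.02% (2.49% to 3.62%), for peaks outside genes 1.76% (1.03% to 2.81%) and in the dense region of chromosome 15 6.32% (4.37% to 8.81%). The overlap went with the strength of the DMSO peak. In the top 20% by fold of the DMSO list without the dense region, 14.65 to 33.8, 20 of 209 gene-body peaks overlapped (9.57%, 5.94% to 14.4%), against 101 of 783 gene-end peaks (12.9%, 10.6% to 15.5%). In its bottom 20%, 0 of 315 gene-body peaks did, which allows up to 1.16% by the same interval. By the rule that chose the gene-body peaks, 120 treated peaks (24.4% of that list) were inside coding genes, and 24 of them overlapped a gene-body peak of the DMSO list. The median distance between the 2 summits was 178 bp, and in 7 pairs it was at most 50 bp.

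Of the 27 peaks, 13 were at an internal start, and 9 lay more than 5 kb from a coding gene end. The clock gene Arntl had the highest treated fold of these 9, with 5.70 in the treated list and 17.3 in the DMSO list, 28.8 kb from the gene end and 225 bp upstream of an internal start. Folds of the lists do not share a scale and were not set against each other. The summits of the spindle gene Tacc1 differed by 3 bp and those of Trpm3 by 4 bp, with treated folds of 4.97 and 3.43. Cep41, the kinase gene Rps6ka2, Cds2 and Dcun1d4 had treated folds of 5.265, 4.89, 4.75 and 4.53, and these 4 and Arntl were the ones at an internal start. At the narrow Zc3h7a peak the treated −log10 q was 19.6, the highest of the 28 treated peaks, with a treated fold of 4.07 and summits 12 bp apart. Nearer to gene ends, Brd2 overlapped 2 treated peaks, with treated folds of 5.51 and 4.64.

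The peaks were spread unevenly over chromosomes. Per Mb of coding gene body, chromosome 17 had 2.22 gene-body peaks, chromosome 11 had 2.05, chromosome 5 had 2.02 and chromosome 19 had 1.96. Chromosome 14 had 0.551 and chromosome 12 had 0.522. The X chromosome had 10 peaks, or 0.229 per Mb, and the Y chromosome had 0. In the whole DMSO list, 41 peaks lay on the X chromosome.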

How the data were processed

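The submitters' processing notes name the build mm10 and, without roles, the peak caller MACS2 2.1.0, the aligner STAR 2.5.2a, bcl2fastq 2.17.1.14, Picard 1.141 and SAMtools 0.1.19. The authors deposited 1 pooled peak list per condition. Per the deposited files, each peak has a score, which equals the whole part of 10 times −log10 p in 100% of DMSO peaks, a fold enrichment (ratio) at the summit, and −log10 p and −log10 q values. How peaks entered a list is not stated, nor are read totals, so depth is known only at summits. The caller's formulas were inverted to recover fragments there. A solution within a tolerance of 0.02 fragments was found for 100% of 6444 peaks, and the lowest had 35 fragments. The inversion was tested on 300 simulated peaks whose background term was at the floor or a whole number, and 100% were recovered. Fractional background terms, which some peaks had, and the highest fragment counts were not simulated.

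The gene-body peaks and the 9 gene lists were chosen with earlier results of these data known. Distances used the RefSeq gene table of GRCm38.p6, with 49943 genes, 21887 of them protein-coding, and the RefSeq promoter table, which matched 17492 coding genes, gives their strand and lists no start on chromosome 18. The genes named are the 15 highest folds beyond 5 kb and 10 up to 5 kb, hosts of 4 or more peaks, the 6 farthest and 4 widest peaks, overlaps with treated peaks beyond 5 kb, up to 5 hosts per list, up to 10 peaks near small RNA genes, and 4 peaks on each side of the margin; some genes that the rule names are not reported here. Intervals are exact Clopper-Pearson at 95%, cover counting error only, and treat peaks or genes as independent, which they are not. No p-value was computed, since there are no values per sample. Software was pandas 2.3.3, SciPy 1.17.1, NumPy 2.4.6 and Matplotlib 3.10.9 under Python 3.11.15. Alternatives changed the margin, gene models, placement point, peak threshold, overlap rule and distances.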

Additional observations from a re-analysis of the deposited data

How the results depend on the processing

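With a margin of 5 kb in place of 1 kb there were 802 gene-body peaks in 632 genes, with a median fold of 10.89. Of these, 1.12% overlapped a treated peak, 0.125% reached a coding gene end, 9.48% lay near a non-coding gene end, 58.5% lay nearer the gene start and 24.2% lay at an internal start. With a margin of 2 kb, 4.41% reached a gene end. Only peaks at or above the median −log10 q gave 646 peaks, a count set by the cut itself, with a median fold of 13.18. That fold is not independent of the cut, since fold and −log10 q come from the same summit coverage. With treated peaks of −log10 q of at least 5, 0.619% overlapped. A non-coding gene end lay within 500 bp of 7.12% and within 2 kb of 15.8% of the peaks. An internal start lay within 500 bp of 26.2%, an alternative chosen after seeing the data, as were the other alternatives for internal starts. The other 13 alternative values stayed within 1.5 times for counts, or within the interval of the main value for shares and medians, as did the 9 gene lists with the margin of 5 kb. No paired analysis was possible because each list pools its samples. Leaving out a replicate was not possible for the same reason. No result rests on a value per sample. The lowest summit of the list had 35 pull-down fragments, and what lies below it was not analysed here. Without strand for some hosts, exons or genome sequence, the 62.0% of peaks near no listed feature could not be placed further.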
